A study of Mus musculus with 12 samples.

Results

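In mouse kidney cortex 10 acute-phase genes were followed: the fibrinogen chain genes Fga, Fgb and Fgg, the serum amyloid A genes Saa1, Saa2 and Saa3, the orosomucoid genes Orm1 and Orm2, the protease inhibitor gene Serpina3n, and Itih4, an inter-alpha-trypsin inhibitor heavy chain gene. They were taken by name from a table of 47719 genes, by a rule that uses no measured value, but the set was proposed with earlier results of these data known, so its counts are a description. RNA was sequenced in 12 libraries, 3 in each of 4 groups. The labels give whole kidney as the source but cortex as the tissue region, and their protocol says that cortex was separated, so the tissue is called cortex here. In addition, the labels describe the C57BL6/J mice as male and 8 weeks old. PF mice received a control liquid diet, with maltose-dextrin matched for calories, for 6 weeks, and EtOH mice the Lieber-DeCarli diet, whose ethanol content was raised to 6%, over the same time. Both of these groups were injected with saline, and the PF4hLPS and EtOH4hLPS groups with 10 mg/kg lipopolysaccharide (LPS, a bacterial cell wall component) into the peritoneum, all 4 hours before the kidneys were taken. No group carries an engineered allele. The labels number the libraries of a group without saying that each is from its own mouse, and the p-values then cover only the variation among these libraries, which may be technical.

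The acute phase is the change in plasma protein production that follows infection or injury, and the liver is its main site. Interleukin 6 acts through the receptor chain gp130 and the transcription factor STAT3 on the fibrinogen genes, and interleukin 1 and tumour necrosis factor act through NF-kB and C/EBP factors on the serum amyloid A and orosomucoid genes. Fibrinogen, built from equal numbers of its 3 chains, is cut by thrombin to form the fibrin of a clot. Serum amyloid A proteins ride on high-density lipoprotein, and epithelia, macrophages and fat cells make Saa3 outside the liver. Orosomucoids are lipocalins that bind drugs and lipids, and Serpina3n inhibits serine proteases of neutrophils and lymphocytes.

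In GENCODE M21 (GRCm38, also called mm10) the fibrinogen genes form 1 cluster on chromosome 3, with Fgg at 83007724 to 83015049 and Fga at 83026076 to 83033627 on the plus strand and Fgb at 83040141 to 83049863 on the minus strand. The serum amyloid genes lie on chromosome 7, with Saa3 at 46711998 to 46715700 and Saa1 at 46740497 to 46742980 on the minus strand and Saa2 at 46751790 to 46754313 on the plus strand. Orm1 (63344560 to 63348163) and Orm2 (63362449 to 63365878) are neighbours on chromosome 4. Serpina3n lies on chromosome 12 at 104406729 to 104414329 and Itih4 on chromosome 14 at 30886476 to 30902353. All 10 are protein coding. The promoter sequences of the genes with the highest levels after LPS, and of Serpina3n, are shown because these genes rose together and because published acute-phase control runs through short motifs upstream of the start. Each is the 250 bases before the RefSeq start (GRCm38.p6), 5′ to 3′ on the gene's strand, with motif matches in capitals.
Fga (chr3:83025903-83026152, plus strand): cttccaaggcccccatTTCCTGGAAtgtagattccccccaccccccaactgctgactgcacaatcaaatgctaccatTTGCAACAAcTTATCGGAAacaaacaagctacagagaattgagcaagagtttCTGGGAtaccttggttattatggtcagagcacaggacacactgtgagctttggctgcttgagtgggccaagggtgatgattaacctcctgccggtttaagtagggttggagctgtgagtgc
Fgb (chr3:83049864-83050113, minus strand): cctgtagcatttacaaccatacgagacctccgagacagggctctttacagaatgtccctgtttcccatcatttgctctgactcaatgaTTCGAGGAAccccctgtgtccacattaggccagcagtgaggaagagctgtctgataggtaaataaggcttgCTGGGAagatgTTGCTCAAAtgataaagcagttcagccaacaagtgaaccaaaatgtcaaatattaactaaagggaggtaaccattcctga
Fgg (chr3:83007474-83007723, plus strand): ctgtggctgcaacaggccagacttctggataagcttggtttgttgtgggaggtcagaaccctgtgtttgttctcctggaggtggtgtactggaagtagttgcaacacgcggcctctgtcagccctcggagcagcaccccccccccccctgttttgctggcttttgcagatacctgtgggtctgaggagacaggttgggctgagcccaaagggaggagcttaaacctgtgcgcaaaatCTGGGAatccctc
Saa1 (chr7:46742981-46743230, minus strand): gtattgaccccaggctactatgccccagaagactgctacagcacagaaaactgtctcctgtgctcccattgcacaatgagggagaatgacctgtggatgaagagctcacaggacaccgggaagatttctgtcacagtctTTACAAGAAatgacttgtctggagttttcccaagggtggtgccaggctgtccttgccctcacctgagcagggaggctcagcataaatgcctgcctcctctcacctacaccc
Saa2 (chr7:46751583-46751832, plus strand): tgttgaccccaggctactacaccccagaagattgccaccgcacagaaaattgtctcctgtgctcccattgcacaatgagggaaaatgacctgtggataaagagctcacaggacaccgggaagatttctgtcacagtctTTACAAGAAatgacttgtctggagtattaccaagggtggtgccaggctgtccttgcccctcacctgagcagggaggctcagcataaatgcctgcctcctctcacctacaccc
Saa3 (chr7:46715677-46715926, minus strand): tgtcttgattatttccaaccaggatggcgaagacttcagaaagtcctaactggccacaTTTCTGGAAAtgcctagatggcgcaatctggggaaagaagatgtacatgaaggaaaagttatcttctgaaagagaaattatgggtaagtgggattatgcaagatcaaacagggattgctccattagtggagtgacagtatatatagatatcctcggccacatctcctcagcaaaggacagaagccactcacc
Serpina3n (chr12:104406458-104406707, plus strand): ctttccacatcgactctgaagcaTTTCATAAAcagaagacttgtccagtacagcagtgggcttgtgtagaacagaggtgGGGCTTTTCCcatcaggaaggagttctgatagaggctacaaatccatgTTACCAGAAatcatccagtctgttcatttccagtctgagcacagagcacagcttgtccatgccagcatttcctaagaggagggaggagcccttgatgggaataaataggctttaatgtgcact

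The capitals mark matches, on either strand, to the STAT motif TTCNNNGAA, the core of the interleukin 6 response element CTGGGA, the C/EBP motif TTNCNNNAA and the NF-kB motif (GGG, any 3 bases, TTCC). RefSeq entries were present for 9 of the 10 genes. The STAT letters were found in 3 of the 9, at 234 to 226 bases before the start of Fga, 162 to 154 before Fgb and 51 to 43 before Itih4, and in 7.02% of 32851 promoters of the same length. At these 3 places the C/EBP letters match the same 9 bases. The interleukin 6 element letters were found in Fga (121 to 116), Fgb (91 to 86), Fgg (13 to 8) and Itih4 (80 to 75), and in 27.0% of all promoters. The C/EBP letters were found in 8 of the 9, all but Fgg, and in 32.9% of all promoters, and Saa1 (111 to 103) and Saa2 (112 to 104) carry the same 9 letters there. The NF-kB letters were found in Serpina3n alone of the 9 (171 to 162) and in 4.65% of all promoters. The Saa1 and Saa2 windows agreed at 238 of 251 aligned positions (94.8%), whereas Saa1 and Saa3 agreed at 48.9%. A match describes these letters and is not evidence of binding.

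Levels are given in FPKM, a fragment count divided by transcript length and by the mapped fragments, which lets genes of different length be set side by side. The deposited values are labelled as normalized, so a scaling between libraries may come on top of that division. The FPKM of a library summed to between 1005219 and 1935824, and the total number of fragments is not in the table. Relative depth, read from the steps between low values and set to 1 in PF library 1, was 0.722 to 1.20 in the other saline libraries and 0.49 to 0.763 in the LPS libraries. These steps carry any scaling between libraries, so the value is not a measure of sequenced fragments. Only 17.4 to 22.2% of the low genes lay at the step used. All 37 mitochondrial genes were listed at 0 everywhere, so a 0 is reported as listed, not as absence. The tubule markers Slc34a1 and Umod stood at 465 to 931 and 459 to 909.8 FPKM over the 12 libraries and the podocyte marker Nphs1 at 1.89 to 8.79 FPKM. Differences between groups were tested with limma on log2(FPKM + 1), which compresses low genes, over the 14109 genes that reached 1 FPKM in at least 3 libraries. Of the 10 members 7 passed that filter. Orm1 and Orm2 reached 1 FPKM in 2 libraries each and Itih4 in none, so these 3 are described separately.

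LPS raised all 7 tested members, in both diets. Past the threshold of 0.05 on limma's adjusted p were 7 of 7 higher in PF4hLPS against PF, where 11.3% of all genes tested were higher, and 7 of 7 higher in EtOH4hLPS against EtOH, where 10.7% were. Raised in both diets were all 7, and 8.46% of all genes tested. The median log2 difference of the 7 was 6.27 in pair-fed and 4.95 in ethanol-fed kidneys, beside -0.01 and 0.02 over all genes tested. Members that pass the filter only through their LPS libraries (Fgb, Saa1, Saa2, Saa3 and Serpina3n) had to differ in this direction. By range, the LPS libraries of all 10 members lay above the PF libraries, and those of 8 lay above the EtOH libraries, with Orm2 and Itih4 overlapping. Such a separation was seen in 18.5% and 18.8% of the genes tested and in 4.24% and 4.01% of the genes under the filter.

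**Figure D1:**
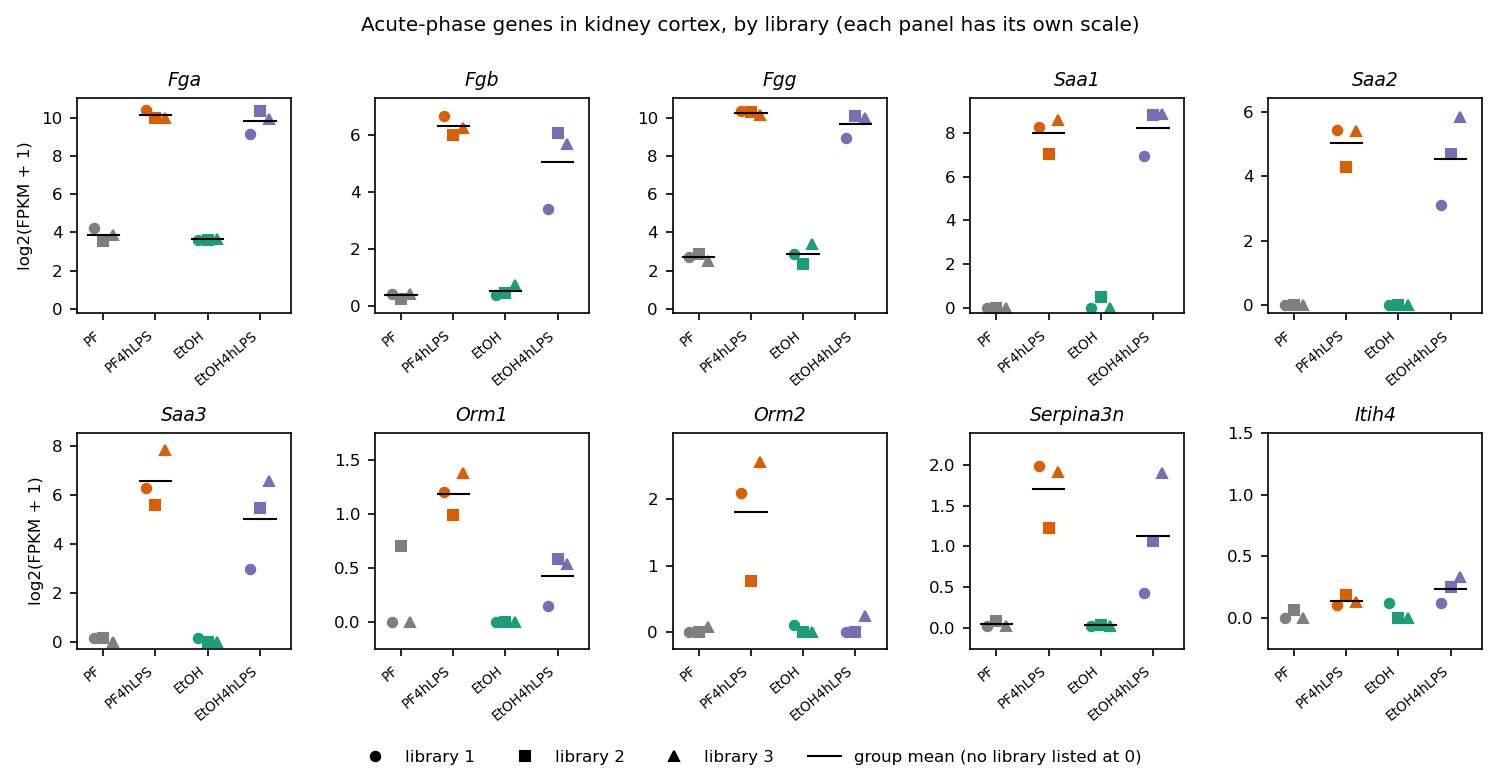
FPKM of the 10 acute-phase genes in each library, as log2(FPKM + 1) on a scale of its own per panel, with the 3 libraries of each group as a circle, a square and a triangle and the group mean as a line where no library is listed at 0. The LPS libraries stand above the saline libraries of the same diet in every panel except Orm2 and Itih4 in the ethanol-fed mice, and EtOH4hLPS library 1 (circle) is the lowest of its group in 9 panels.

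Fgg, the gamma chain gene, stood at 5.55, 6.38 and 4.71 FPKM in the PF libraries 1 to 3 and at 6.29, 4.05 and 9.46 FPKM in the EtOH libraries. After LPS it stood at 1307, 1284 and 1143 FPKM in PF4hLPS and at 489.5, 1090.0 and 1045 FPKM in EtOH4hLPS. The saline and LPS libraries were far apart, and within the LPS groups EtOH4hLPS library 1 stood apart as the lowest. Mean FPKM rose 224-fold with pair-feeding and 133-fold with ethanol, and the log2 differences were 7.58 ± 0.32 (SE, limma adjusted p = 1.26e-08) and 6.82 ± 0.32 (adjusted p = 3.16e-08). By its median FPKM, Fgg went from rank 6995 to rank 34 of 21618 protein-coding genes in pair-fed kidneys, and from 6637 to 45 in ethanol-fed kidneys.

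Fga, the A alpha chain gene, had the highest saline level of the 10, at 17.6, 10.5 and 13.7 FPKM in PF and 11.3, 11.1 and 11.8 FPKM in EtOH. It stood at 1350, 1031 and 1038 FPKM in PF4hLPS and at 573, 1311 and 981 FPKM in EtOH4hLPS. No LPS library overlapped a saline library. The rise was 81.9-fold in pair-fed mice (log2 difference 6.27 ± 0.28 SE, limma adjusted p = 1.92e-08) and 83.6-fold in ethanol-fed mice (6.19 ± 0.28, adjusted p = 2.48e-08).

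Fgb, the B beta chain gene, was far lower, at 0.361, 0.188 and 0.356 FPKM in PF and 0.306, 0.365 and 0.685 FPKM in EtOH. After LPS it stood at 101, 63.4 and 74.7 FPKM in PF4hLPS and at 9.71, 66.2 and 50.6 FPKM in EtOH4hLPS. The first of the EtOH4hLPS libraries was 6.82 times below the highest of its group, the second widest gap between LPS libraries of a fibrinogen gene being 2.29 times, for Fga. Fgb rose 264.5-fold in pair-fed mice (log2 difference 5.93 ± 0.53 SE, limma adjusted p = 1.42e-05) and 93.4-fold in ethanol-fed mice (4.53 ± 0.53, adjusted p = 0.000128). Without EtOH4hLPS library 1 the ethanol-fed log2 difference was 5.35 (adjusted p = 5.55e-08).

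The chains were not measured in equal amounts. The ratio of Fgb to Fgg was 0.0295 to 0.0755 in PF, 0.0494 to 0.0774 in PF4hLPS, 0.0487 to 0.09 in EtOH and 0.0198 to 0.0608 in EtOH4hLPS, so that the 4 ranges overlapped while both genes rose. The ratio of Fga to Fgg moved from 1.65 to 3.17 in PF to 0.803 to 1.03 in PF4hLPS, with no overlap, and from 1.25 to 2.75 in EtOH to 0.939 to 1.20 in EtOH4hLPS, again without overlap. Transcript length enters each FPKM, and M21 annotates 3810 bases for the only coding transcript of Fgb, 2083 to 2587 for Fga and 1695 to 1741 for Fgg; the lengths the authors used are not in the table. The 3 transcripts shared no run of 50 bases. Summed, the chains took 17.1 to 23.5 FPKM in PF, 15.6 to 21.9 in EtOH, 2256 to 2758 in PF4hLPS and 1072 to 2467 in EtOH4hLPS, which is 0.0751 to 0.213% of all FPKM in the LPS libraries.

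Saa1, which with Saa2 encodes the amyloid A of plasma, was listed at 0 in all 3 PF libraries and in 2 of 3 EtOH libraries, and at 0.406 FPKM in EtOH library 2. After LPS it stood at 312, 131 and 386 FPKM in PF4hLPS and 123, 453 and 459 FPKM in EtOH4hLPS. The lowest library of each LPS group was thus well under the other two. The log2 differences were 7.98 ± 0.49 (SE, limma adjusted p = 4.97e-07) in pair-fed and 8.05 ± 0.49 (adjusted p = 4.64e-07) in ethanol-fed mice, the latter 8.67 without EtOH4hLPS library 1. No fold is given against a group listed at 0.

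Saa2 was listed at 0 in all 6 saline libraries. It stood at 42.7, 18.5 and 41.5 FPKM in PF4hLPS and at 7.55, 24.9 and 56.0 FPKM in EtOH4hLPS. Its log2 differences were 5.05 ± 0.55 (SE, limma adjusted p = 6.13e-05) and 4.54 ± 0.55 (adjusted p = 0.000155). The ethanol-fed value was 5.26 without EtOH4hLPS library 1 and 3.89 without EtOH4hLPS library 3. Of the 50-base words of the Saa1 transcript, 13.2% also occur in Saa2, and how the authors' counting split fragments from such stretches is not known. Saa2 was 0.107 to 0.141 of Saa1 in PF4hLPS and 0.0549 to 0.122 in EtOH4hLPS.

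Saa3 was listed at 0.12, 0.122 and 0 FPKM in PF and at 0.129, 0 and 0 FPKM in EtOH. In PF4hLPS it stood at 75.8, 47.4 and 223.5 FPKM and in EtOH4hLPS at 7.02, 43.1 and 93.6 FPKM. It had the widest spread of the 10 in EtOH4hLPS, 13.3 times from the lowest to the highest library. Its log2 differences were 6.45 ± 0.81 (SE, limma adjusted p = 0.000421) and 4.95 ± 0.81 (adjusted p = 0.00232). The ethanol-fed value was 5.95 without EtOH4hLPS library 1 and 4.17 without EtOH4hLPS library 3, and the pair-fed value 5.82 without PF4hLPS library 3, each still past the threshold. The ratio of Saa3 to Saa1 was 0.243 to 0.579 in PF4hLPS and 0.057 to 0.204 in EtOH4hLPS. These ranges did not overlap; the ratio was chosen after the values were seen and was not tested. Saa4, the constitutive paralogue and not one of the 10, rose from 0.109 to 0.152 FPKM in PF to 3.94 to 6.32 in PF4hLPS, and from 0.0605 to 0.117 in EtOH to 2.25 to 3.68 in EtOH4hLPS (log2 differences 2.38 ± 0.18 and 1.86 ± 0.18, limma adjusted p = 2.07e-06 and 1.81e-05).

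**Figure D2:**
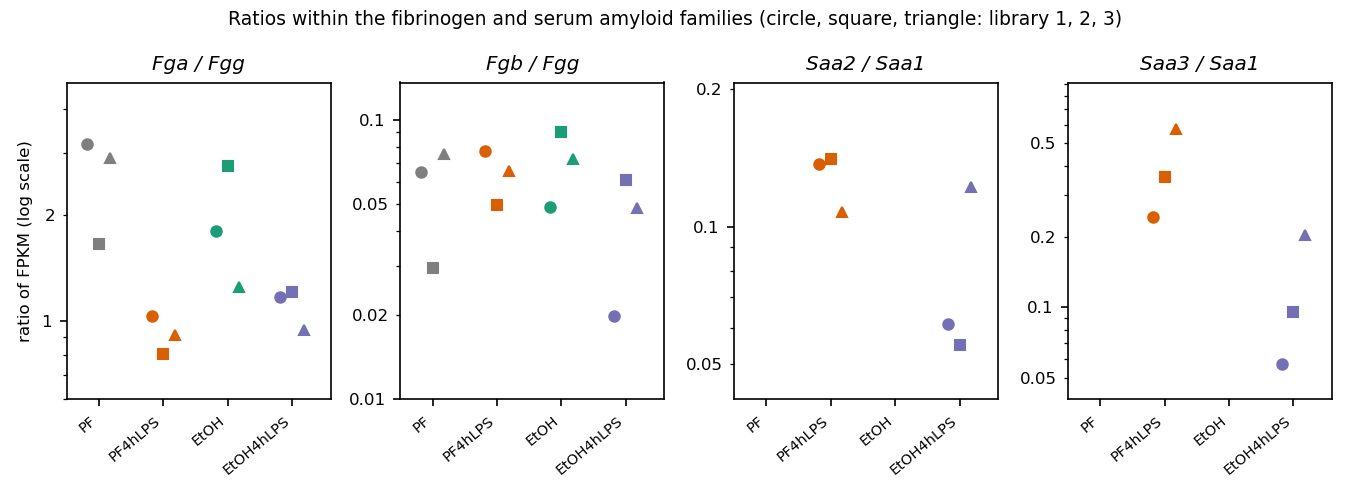
Ratios of FPKM within each library on log axes for Fga to Fgg, Fgb to Fgg, Saa2 to Saa1 and Saa3 to Saa1, by group, with 1 point per library. Saline groups have no serum amyloid ratio drawn because Saa1 is listed at 0 in 5 of those 6 libraries; the Fga to Fgg ratio is lower in both LPS groups, and EtOH4hLPS library 1 has the lowest Fgb to Fgg ratio, 0.0198.

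Serpina3n was measured close to 0 in saline kidneys, at 0.0177 to 0.0644 FPKM in PF and 0.0225 to 0.0294 FPKM in EtOH. It stood at 2.96, 1.34 and 2.77 FPKM in PF4hLPS and at 0.35, 1.09 and 2.73 FPKM in EtOH4hLPS. The rise was 68.5-fold in pair-fed mice (log2 difference 1.66 ± 0.31 SE, limma adjusted p = 0.00308) and 55.8-fold in ethanol-fed mice (1.10 ± 0.31, adjusted p = 0.032). These folds rest on few libraries: without PF library 2, the highest of its group, the pair-fed fold was 121, and without EtOH4hLPS library 3 the ethanol-fed fold was 29.0 (log2 difference 0.71). The ethanol-fed call did not hold in 7 of 21 alternatives, with adjusted p between 0.0703 and 0.11; among these were fits without any 1 of the EtOH libraries, without EtOH4hLPS library 2 (0.0762) and without EtOH4hLPS library 3 (0.11). The 2 of its 10 listed Serpina3 paralogues that passed the filter, Serpina3f (log2 differences 4.24 and 3.98) and Serpina3g (3.83 and 4.47), rose in both diets; Serpina3n shares 2.5% of its 50-base words with Serpina3g and 1.0% with Serpina3f.

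Orm1 was listed at 0, 0.628 and 0 FPKM in PF and at 0 in all EtOH libraries. It stood at 1.30, 0.982 and 1.60 FPKM in PF4hLPS and at 0.103, 0.494 and 0.452 FPKM in EtOH4hLPS. Orm2 was listed at 0 to 0.0575 FPKM in PF and 0 to 0.0742 FPKM in EtOH, at 3.24, 0.701 and 4.90 FPKM in PF4hLPS, and at 0, 0 and 0.181 FPKM in EtOH4hLPS. Orm2 after LPS thus lay above its saline range in pair-fed mice, whereas its ethanol-fed LPS libraries overlapped the saline ones. The transcripts share 20.4% of their 50-base words. Itih4 reached at most 0.262 FPKM in the 12 libraries, from 0.0758 to 0.136 FPKM in PF4hLPS and from 0.0868 to 0.262 FPKM in EtOH4hLPS, against at most 0.0872 FPKM without LPS. A two-sided exact permutation test of LPS against saline within diet over 12 libraries gave p = 0.005 for Orm1 (the smallest it can give), 0.01 for Itih4 and 0.05 for Orm2, and 0.015, 0.015 and 0.05 after Benjamini-Hochberg adjustment over these 3 exact tests. In limma without the filter, adjusted over all genes, Orm1 passed in pair-fed mice (adjusted p = 0.0204) but not in ethanol-fed mice (0.364). Orm2 passed in pair-fed mice (limma adjusted p = 0.0134) but not in ethanol-fed mice (log2 difference 0.05 ± 0.35). Itih4 passed in neither diet (limma adjusted p = 0.356 and 0.101).

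Set in order of level after LPS, Fgg and Fga led in PF4hLPS with overlapping ranges (1143 to 1307 and 1031 to 1350 FPKM). Saa1 came next, and its range overlapped that of Saa3, which in turn overlapped that of Fgb. Saa2 lay below Fgb without overlap. The remaining 4 genes stayed under 5 FPKM, with Itih4 lowest. In EtOH4hLPS the order of the medians was Fgg, Fga, Saa1, Fgb, Saa3 and Saa2, the ranges of Fgg and Fga overlapped, and so did those of Fgb, Saa3 and Saa2.

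**Figure D3:**
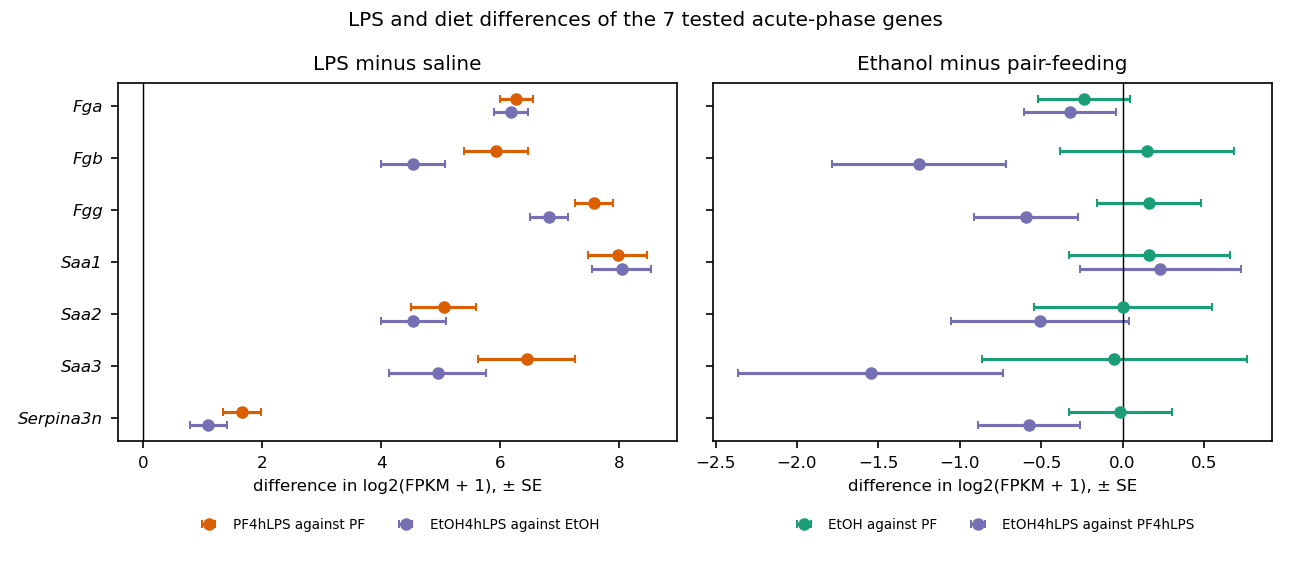
Differences in log2(FPKM + 1), with standard errors from the limma fit over 12 libraries, for the 7 tested acute-phase genes: LPS minus saline in each diet on the left, ethanol minus pair-feeding without and with LPS on the right. The LPS differences run from 1.10 to 8.05, and no diet difference passed the threshold.

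No member differed between diets past the threshold in limma. Between EtOH and PF the tested members ranged from -0.24 (Fga) to 0.16 (Saa1) on the log2 scale, 0 of 7 passed with adjusted or unadjusted p, and of all genes tested 0.0284% and 3.69% passed. Between EtOH4hLPS and PF4hLPS 0 of 7 passed after adjustment and 1 of 7, Fgb, at an unadjusted p under 0.05, where 0.0992% and 10.8% of all genes tested passed. Of the 7 log2 differences 6 were negative: Saa3 -1.55 ± 0.81 (limma adjusted p = 0.523), Fgb -1.25 ± 0.53 (0.439), Fgg -0.59 ± 0.32 (0.524), Serpina3n -0.58 ± 0.31 (0.529), Saa2 -0.51 ± 0.55 (0.772) and Fga -0.32 ± 0.28 (0.709). Saa1 was at 0.23 ± 0.49 (0.894). These differences leaned on EtOH4hLPS library 1: without it Saa3 was at -0.54, Fgb at -0.43 and Fgg at -0.22, and Fga (0.00) and Saa2 (0.22) were no longer negative.

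In 3 members the EtOH4hLPS range lay wholly below the PF4hLPS range, namely Fgg, Orm1 and Orm2, beside 5.59% of the genes tested and 2.48% of the genes under the filter. For Orm1 and Orm2 an exact permutation test of 3 against 3 libraries gave p = 0.1, the smallest it allows, and for Itih4 p = 0.3. When limma was run without the filter, Orm2 had a log2 difference of -1.72 ± 0.35 (unadjusted p = 0.000531, adjusted p = 0.248) and Orm1 of -0.77 ± 0.20 (unadjusted p = 0.00323, adjusted p = 0.409). Averaged over both injections, 0 of 7 members differed by diet with adjusted or unadjusted p (0.319% and 9.45% of all genes tested). Without the filter Orm1 was at -0.50 ± 0.14 (limma unadjusted p = 0.0053, adjusted p = 0.574) and Orm2 at -0.86 ± 0.25 (unadjusted p = 0.00565, adjusted p = 0.581) in that comparison. The interaction, which asks whether the LPS response differs between diets, called 0 of 7 with adjusted or unadjusted p (0.0284% and 4.37% of all genes tested), with Fgb at -1.40 ± 0.75 and Saa3 at -1.50 ± 1.15 (both limma adjusted p = 0.988). Without the filter the interaction of Orm2 was -1.73 ± 0.49 (limma unadjusted p = 0.00537, adjusted p = 0.885) and that of Orm1 -0.53 ± 0.29 (unadjusted p = 0.0897, adjusted p = 0.885).

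The spread between libraries was largest for Saa3. Its residual SD in the limma fit, 1.08 on the log2 scale, was at the 96.4th percentile of all genes tested, followed by Saa2 (94.6), Fgb (94.4) and Saa1 (93.5), while Fgg (78.7), Serpina3n (77.7) and Fga (68.8) were lower. Within groups the SD of Fgg was 0.11 in PF4hLPS and 0.65 in EtOH4hLPS, that of Fgb 0.34 and 1.43, that of Fga 0.22 and 0.60, and that of Saa3 1.14 and 1.82. The wide spread came with a common order. EtOH4hLPS library 1 was the lowest of its group for 9 of 10 members, Orm2 being tied at 0, whereas it was lowest for 37.2% of all genes tested and for 49.0% of the 1194 genes raised in both diets. PF4hLPS library 2 was lowest for 8 of 10, against 38.2% and 39.9%. These shares describe libraries in which most members were low together, and genes of 1 library are not independent of one another.

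**Figure D4:**
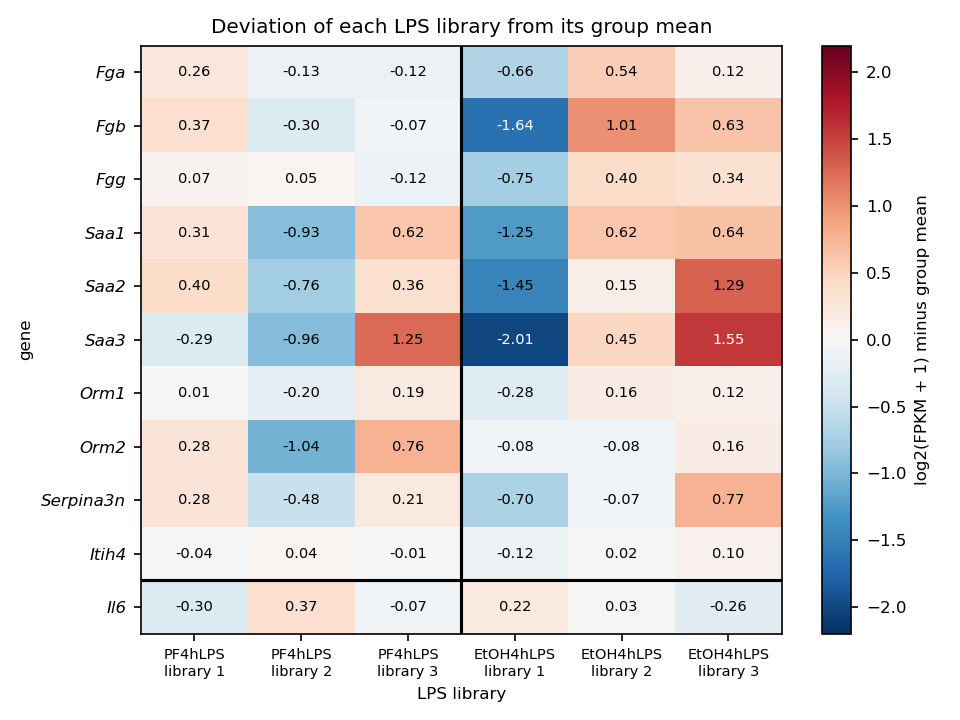
Deviation of each LPS library from its group mean in log2(FPKM + 1) for the 10 acute-phase genes and Il6, with blue below and red above the mean. EtOH4hLPS library 1 reads -2.01 for Saa3 and -1.64 for Fgb, PF4hLPS library 2 reads -0.96 for Saa3 and -0.93 for Saa1, and Il6 is above its group mean in both of these libraries.

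The order was not particular to the members. PF4hLPS library 2 and EtOH4hLPS library 1 were also lowest in their groups for some non-members. Their log2 deviations from the group mean were -0.89 and -1.12 for Lcn2, -1.03 and -1.4 for Hp, and -0.67 and -0.58 for Serpina3g. For Serpina3f they were -0.19 and -0.41, and for Saa4 -0.24 and -0.27. Il6 did not follow that order. It stood at 50.04, 80.0 and 58.8 FPKM in PF4hLPS and 122, 107 and 87.6 FPKM in EtOH4hLPS, so that the highest Il6 library of each group was the one in which most members were lowest. These 2 libraries also had the most negative slopes of expression on transcript GC content, -0.412 (PF4hLPS library 2) and -0.308 (EtOH4hLPS library 1) log2 per 10 percentage points, against -0.248 to 0.214 in the others. PF4hLPS library 2 had the lowest relative depth by the steps between low values, 0.49, a value that carries any scaling between libraries. The transcript GC content of the members was 42.7% (Fgg) to 54.4% (Saa2). The part of GC content, depth and scaling in the library order was not tested. Without PF4hLPS library 2 all 7 tested members stayed past the threshold in pair-fed mice, and without EtOH4hLPS library 1 all 7 did in ethanol-fed mice.

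Most of the tested genes that carry the acute-phase signal were raised in the same kidneys. The lists here and below were chosen with results of these data known, and are given by their counts. Of the inducing cytokines 5 of 9 were tested, and 4 rose in each diet: Il6 (log2 difference 5.91 ± 0.19 in pair-fed, 6.59 ± 0.19 in ethanol-fed), Il1b (2.98 and 3.53), Lif (1.10 and 1.39) and Tnf (1.03 and 1.21). Of their receptors and kinases 9 of 10 were tested, and 7 rose with pair-feeding and 6 with ethanol, among them the oncostatin M receptor gene Osmr (3.02 and 3.11), Jak2 (1.69 and 1.66) and Il6st, which encodes gp130 (1.04 and 0.66). Il6ra, the interleukin 6 receptor alpha chain, was listed at 0.44 to 1.26 FPKM over the 12 libraries. Il6 in EtOH4hLPS lay above PF4hLPS in all libraries, at a log2 difference of 0.75 ± 0.19 that did not pass (limma adjusted p = 0.168).

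Of the 9 acute-phase regulators, all tested, 6 rose and 2 fell with pair-feeding, and with ethanol 6 rose and 1 fell. Those that rose included Cebpd (4.44 and 3.47 on the log2 scale), Cebpb (4.00 and 3.58), Stat3 (2.57 and 2.47) and Socs3, the feedback inhibitor of STAT3 signalling (3.58 and 4.04). Of the factors known for hepatocyte and tubule genes, Cebpa fell by 1.05 and by 0.86, and Hnf4a fell by 0.95 in pair-fed mice and was at -0.74 (adjusted p = 0.0607) in ethanol-fed mice.

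**Figure D5:**
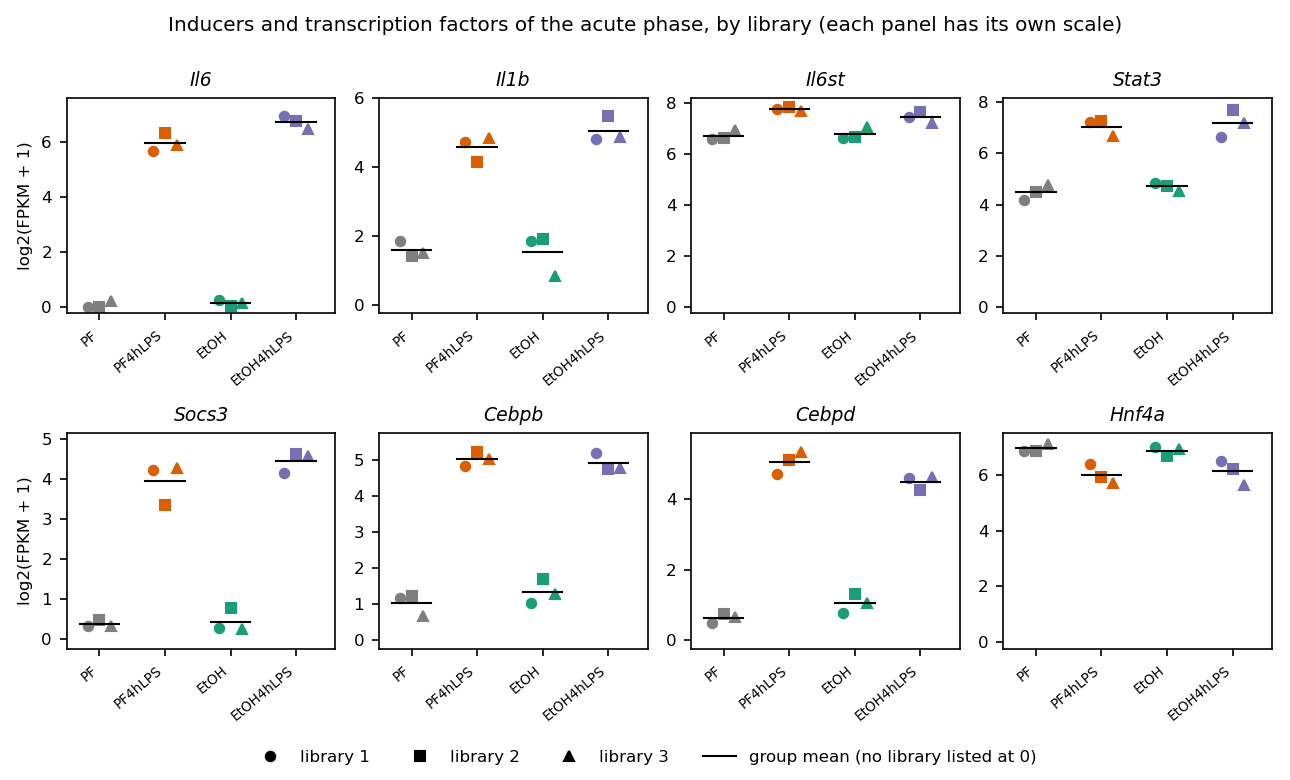
FPKM of 8 genes that induce or control acute-phase transcription in each library, as log2(FPKM + 1), drawn as in the plot of the 10 acute-phase genes. Il6, Il1b, Stat3, Socs3, Cebpb and Cebpd are higher in all LPS libraries than in the saline libraries of the same diet, and Hnf4a is lower.

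Other positive acute-phase genes rose as well: of 21 tested among 25, 15 were higher with pair-feeding and 12 with ethanol and none was lower in limma. They included Lcn2, the iron-chelating lipocalin of injured tubules (log2 differences 6.85 ± 0.46 and 6.89 ± 0.46), the complement gene C3 (5.87 and 6.37), the metallothionein gene Mt2 (5.33 and 5.37), the metalloreductase gene Steap4 (4.71 and 5.04) and Il1rn, the interleukin 1 receptor antagonist (4.71 and 4.01). Their median log2 difference was 2.66 and 1.89, beside 6.27 and 4.95 for the 7 members. Fgb, Saa1, Saa2, Saa3 and Serpina3n passed the filter only through their LPS libraries, so these medians are not ranked against one another. Of 11 negative acute-phase genes such as Alb and Ttr, which the liver makes less of in the acute phase, 5 were tested and 0 passed in limma in either LPS comparison, with 1 in each at an unadjusted p under 0.05. Averaged over both injections, Apcs of the positive list was lower with ethanol (-0.98 ± 0.17, limma adjusted p = 0.0446) and Gc of the negative list higher (1.42 ± 0.22, adjusted p = 0.0263). Each was the only call of its list, 1 of 21 and 1 of 5 tested, beside 0.319% of all genes tested. Neither passed in EtOH4hLPS against PF4hLPS alone (limma adjusted p = 0.0726 and 0.0793). Apcs ran from 0.0736 to 1.23 FPKM in the EtOH4hLPS libraries.

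Among genes that act on or bind fibrinogen, 11 of 14 were tested; with pair-feeding 7 rose and 1 fell, and with ethanol 4 rose. Icam1 (4.14 and 5.27), an adhesion molecule that binds fibrinogen, the urokinase receptor gene Plaur (1.69 and 2.29) and the tissue plasminogen activator gene Plat (1.46 and 1.76) rose in both, and Plau fell by 1.35 in pair-fed mice. The thrombin gene F2 and the plasminogen gene Plg were at most at 0.172 and 0.139 FPKM in any library. Of the serum amyloid receptors and partners 6 of 9 were tested and 4 rose in each diet: Tlr2 (5.10 and 5.09), Fpr2 (2.65 and 2.61), Fpr1 (1.11 and 1.30) and Tlr4 (1.08 and 1.53). Of the fibrinogen-domain relatives 3 of 5 were tested; Fgl2, a prothrombinase of endothelium and macrophages, rose in both diets (3.39 and 3.29) and Angptl4 in ethanol-fed mice (3.41). Lcn2 was the only tested one of 4 other lipocalins listed beside the orosomucoids. Of the 5 other genes of the inter-alpha-trypsin inhibitor family 2 were tested. In the LPS comparisons 0 of these 2 passed with adjusted or unadjusted p.

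Liver RNA in the samples was checked with 15 hepatocyte markers. Of the 7 tested, 0 passed in limma in either LPS comparison, with 1 (pair-fed) and 0 (ethanol-fed) at an unadjusted p under 0.05. Diet did shift some of them. Averaged over both injections, Apoh was lower with ethanol (-0.85 ± 0.14, limma adjusted p = 0.0306). In that comparison 5 of the 7 had an unadjusted p under 0.05, 3 of them higher, beside 9.45% of all genes tested. In EtOH against PF and in EtOH4hLPS against PF4hLPS 3 of the 7 did, beside 3.69% and 10.8%, and 0 passed after adjustment. The summed level of the 15 was 30.2 to 31.5 FPKM in PF, 27.5 to 47.4 in PF4hLPS, 30.1 to 34.1 in EtOH and 31.2 to 46.4 in EtOH4hLPS. Of the 15, 7 (Ahsg, Cps1, Cyp8b1, Cyp3a11, F2, Mug1 and Plg) were under 0.5 FPKM in every library. Alb was at 4.59 to 14.9 FPKM, and Fgg at 489.5 to 1307 FPKM after LPS. The part of liver RNA in the members' levels was not tested. Of the adipocyte markers 2 and of the macrophage markers 7 were tested, and 0 passed in limma after LPS. At an unadjusted p under 0.05, 0 and 1 did in pair-fed mice and 1 and 0 in ethanol-fed mice. Their summed levels were 23.5 to 88.5 and 18.8 to 71.4 FPKM over all libraries.

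Neutrophil markers rose as a sum after LPS in both diets. Their sum was 3.50 to 5.44 FPKM in PF and 180 to 416 in PF4hLPS, and 3.16 to 5.17 in EtOH and 168 to 257 in EtOH4hLPS; 4 of 5 tested rose in each diet, led by S100a8 and S100a9, while Mpo and Elane were under 0.5 FPKM in every library. Red cell and platelet markers summed to 130 to 315 FPKM without and 207 to 591 FPKM with LPS, with overlapping ranges. Of the 8 tested, Slc4a1, an anion exchanger gene whose cell source in these kidneys was not tested, was lower in both diets (-1.57 and -1.14). Alas2, of haem synthesis, was higher in ethanol-fed mice (1.06). None of the 4 globin genes passed in limma, at -0.18 to 0.76 in pair-fed and 0.44 to 1.13 in ethanol-fed mice. At an unadjusted p under 0.05, 3 of the 8 markers passed in each diet. The share of all genes at that unadjusted p is not given here for the LPS comparisons. Endothelial markers fell, 7 of 8 with pair-feeding and 6 of 8 with ethanol, with 1 higher in each. Of all 14109 genes tested, 972 and 902 were lower in these comparisons. Of 10 proximal tubule markers 1 (Hnf4a) and of 5 podocyte markers 1 (Podxl) were lower in pair-fed mice and none in ethanol-fed mice. In the same LPS comparisons 0 of 6 distal nephron markers passed with adjusted or unadjusted p. The part of these cells in the members' rise was not tested, and in bulk RNA more cells of a type and more RNA per cell cannot be told apart.

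The genes whose profile over the 12 libraries was most like that of the members were found by the root mean square difference of centred log2(FPKM + 1). Closest to the mean of the 3 fibrinogen genes were the interferon-inducible GTPase genes Gbp2 (0.35), Igtp (0.42) and Gbp5 (0.42), then Ifit3b (0.44) and Gbp3 (0.45). Closest to the mean of Saa1, Saa2 and Saa3 were Lcn2 (0.47), Isg15 (0.51), Gbp2 (0.58), Igtp (0.58) and Gbp3 (0.59). Among those closest to Serpina3n were Ciita (0.17), the MHC class II transactivator, H2-M3 (0.23), Efhd2 (0.25) and Ddit3 (0.26). Gbp2 had medians of 4.02 FPKM in PF, 535 in PF4hLPS, 2.56 in EtOH and 476 in EtOH4hLPS, and Lcn2 of 0.294, 212, 0.353 and 201 FPKM.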

How the data were processed

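FPKM values (fragments per transcript length and mapped fragments) of 12 libraries were deposited by the authors as 1 table. Total RNA went into stranded libraries after ribosomal RNA was removed, per the labels' protocols. The submitters' processing notes name mm10, TopHat2 2.0.4, Cufflinks 2.2.1, Cuffdiff 2.1.1, Cuffnorm and FastQC 0.10.1. Annotation and strand setting: not given in the sources used here. Overlapping antisense genes may share fragments. By Ensembl identifier 47219 genes matched GENCODE M21 and 500 did not.

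The members and lists were chosen with earlier results of these data known. Groups come from the sample titles. With limma 3.58.1 in R 4.3.3, log2(FPKM + 1) of all 12 libraries was fitted by group means, with trended, robust variances, for 14109 genes, and tests were two-sided. Benjamini-Hochberg adjustment ran over those genes within each comparison; every adjusted p of a gene comes from this fit unless an exact test is named. The script was tested on simulated data. Errors after ± are standard errors. Named besides the members were up to 4 called genes per list with the largest differences, a panel of regulators and the 5 nearest profiles; others were chosen after their values were seen. A few listed genes and a motif are not reported here and are left out of the list counts. Promoter letters were searched in Python 3.11.15, and exact tests used scipy 1.17.1. Fragment counts are unknown, so no counting interval is given. Alternatives covered pseudocount, filter, scaling, variance model, samples fitted, replicate block and each library left out.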

Additional observations from a re-analysis of the deposited data

How the results depend on the processing

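Every comparison kept its member count within 1.5 times. The 21 or 22 alternatives gave 6 to 9 members in PF4hLPS against PF, 6 or 7 in EtOH4hLPS against EtOH, and 0 in the 4 diet and interaction comparisons; the 9 came without a filter, which added Orm1 and Orm2. Leaving out 1 library gave 7 in pair-fed and 6 or 7 in ethanol-fed mice, where the lost gene was Serpina3n. That gene had an adjusted p of 0.0885 without the filter and 0.0703 with only the 2 groups fitted. With 1 library left out, the difference between EtOH4hLPS and PF4hLPS ran from -0.59 to 0.00435 for Fga and from -1.15 to 0.22 for Saa2, each changing sign without EtOH4hLPS library 1, and from -0.23 to 0.86 for Saa1, negative without PF4hLPS library 2, EtOH4hLPS library 2 (-0.08) or EtOH4hLPS library 3 (-0.09); none passed the threshold in either form.

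Whether replicate numbers pair the libraries cannot be decided from 3 libraries per group. In their deviations from the group means, same-numbered PF4hLPS and PF libraries correlated at -0.194, -0.044 and 0.194. Those with different numbers correlated at -0.35 to 0.364. With the replicate block, 7 and 7 members were called after LPS and 0 in each diet comparison, and over all genes 1454 rose and 829 fell in pair-fed mice beside 1589 and 972. Scaling to equal total FPKM put the median of all genes at -0.40 (pair-fed) and -0.26 (ethanol-fed) on the log2 scale, beside -0.01 and 0.02 as reported, and gave 858 higher and 2565 lower, and 974 higher and 1772 lower beside 1504 and 902; higher genes were then 25.1% and 35.5% of the calls instead of 62.0% and 62.5%. The 7 members stayed higher, by 1.45 to 7.64 and 1.05 to 7.95. Over all alternatives, diet calls among all genes ran from 0 to 16 (EtOH against PF, 4 as reported), 1 to 43 (EtOH4hLPS against PF4hLPS, 14), 7 to 76 (averaged, 45) and 0 to 7 (interaction, 4), and lower calls after LPS fell to 472 and 522. Fragment depth is unknown. For Orm1, Orm2 and Itih4 the exact diet test of 3 libraries against 3 cannot go below 0.1.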
